A study of Mus musculus with 36 samples.

Results

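The genes described here are 9 transcripts that mark hepatocytes of the portal zone of the liver lobule: Gls2, Hal, Sds, Sdsl, Cdh1, Hsd17b13, Cyp2f2, Pigr and Ctsc. They were taken by name from 53715 gene identifiers in the table of read counts. All 9 were among the 14068 genes left after a filter on low counts, and the smallest count of any of them in any library was 191 reads, for Sdsl. Liver RNA was sequenced from male C57BL/6 mice, an inbred strain, at 10 weeks of age. From 4 weeks of age the mice were fed for 6 weeks. The control diet was AIN93G, a purified rodent diet, and the other diets carried 10% by weight of powder from red or from tangerine tomatoes. Each of the 3 diets had 12 libraries with different mouse numbers, read here as 12 mice; the labels give a group size that may be smaller.

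Blood enters the liver lobule at the portal vein and leaves at the central vein, and hepatocytes along this path divide their work. Cells on the portal side receive the most oxygen and nutrients and are known for breaking down amino acids, making glucose and urea and secreting plasma proteins, whereas cells on the central side make glutamine and bile acids and oxidise foreign compounds. Within the genes described here, Gls2, Hal, Sds and Sdsl encode enzymes of amino acid breakdown, Cdh1 a junction protein, Hsd17b13 a lipid droplet protein, Cyp2f2 a cytochrome P450, Pigr a transport receptor and Ctsc a lysosomal protease.

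Total counts ran from 21290169 to 33810573 reads per library, with medians of 25524054 on control, 26856681 on red and 27076348 on tangerine. Levels are given as CPM, reads scaled to a common library size. Hepatocyte transcripts were abundant throughout, with albumin (Alb) between 59920 and 92083 CPM in the 36 libraries. Of the 50-base stretches of their annotated transcripts, 0 were shared with other genes for Gls2, Sds, Sdsl, Cdh1 and Cyp2f2, and 0.448% to 0.51% for Hal, Hsd17b13, Pigr and Ctsc. RNA came from whole liver tissue, so fewer cells of a type and less RNA per cell cannot be told apart. Some libraries stood apart. The red library from mouse 186 held lymphocyte markers at a summed level of 171 CPM against a red median of 4.67 CPM, and adipose markers at 30.5 CPM against 3.98 CPM. It was also the lowest red library for 4 of the 9 genes (Gls2, Cyp2f2, Pigr and Sdsl). The tangerine library from mouse 216 held pancreas markers at 11.8 CPM against a tangerine median of 0.169 CPM, and that from mouse 192 held the highest sum of bile duct cell markers, 146 CPM against 59.5 CPM. The tangerine library from mouse 226 was the lowest tangerine library for 4 of the 9 genes (Gls2, Sds, Cdh1 and Sdsl) and the lowest of all 36 for Gls2 and Cdh1. It also held the lowest tangerine sum of hepatocyte markers, 88459 CPM against a tangerine median of 104638 CPM. The red library from mouse 186 held the lowest red sum, 95526 CPM against 107453 CPM. The relation of this sum to the 9 genes was not tested.

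To ask whether tomato powder shifted portal zone transcripts, each pair of diets was compared with edgeR's quasi-likelihood test, with p-values adjusted over all 14068 genes by the Benjamini-Hochberg method and a threshold of 0.05. None of the 9 genes passed in any comparison. In red against control 0 of 9 passed, where 0.149% of all tested genes did. In tangerine against control 0 of 9 passed, where 0.0142% did, and in tangerine against red 0 of 9, where 1.71% did. With both tomato diets pooled against control it was 0 of 9, where 0.00711% passed. The 3 comparisons with control share the same 12 control libraries and are not independent. At an unadjusted p under 0.05 there were 3 of the 9 genes in red against control, where 13.3% of all tested genes met that level. There were 0 in tangerine against control (5.47% of all genes), 2 in tangerine against red (15.1%) and 2 for the pooled diets (6.77%). DESeq2 also passed 0 of 9 in each comparison. Limma-voom with sample weights passed 3 of 9 in red against control and 0 in the others. In red against control it passed 1482 of all 14068 genes. The shares in this paragraph are also the background for the counts of other gene lists below. The closing section gives the numbers of all genes passing by other methods where they moved. Without the red library from mouse 186 and the tangerine library from mouse 216 the number passed by edgeR was again 0 in each comparison.

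**Figure D1:**
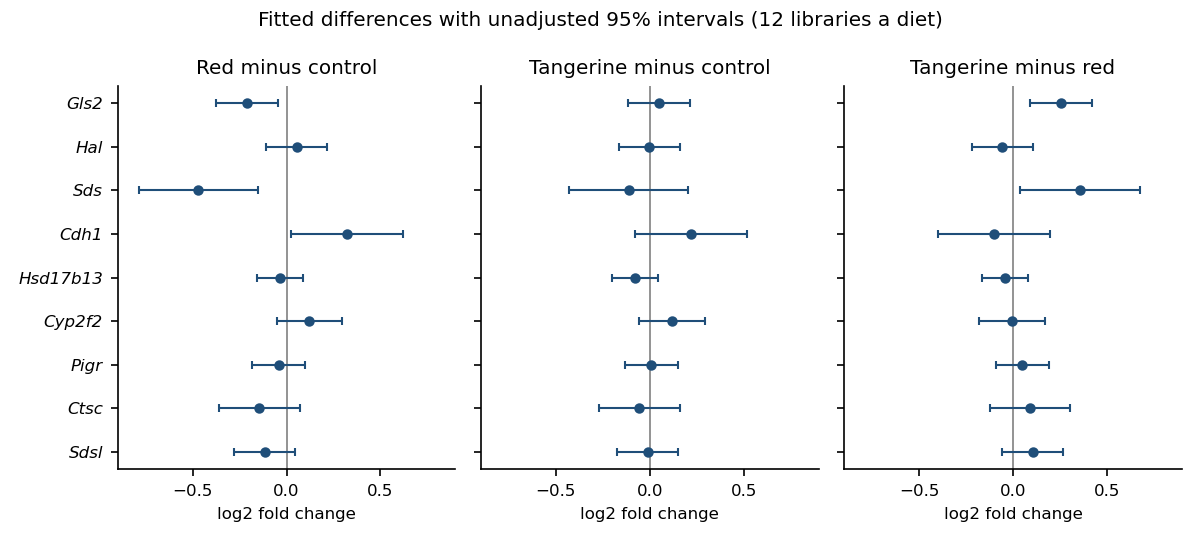
Fitted log2 fold changes of the 9 genes (points) with unadjusted 95% intervals (bars) from edgeR, for red minus control, tangerine minus control and tangerine minus red, 12 libraries a diet. In red minus control the intervals of Gls2 (-0.21), Sds (-0.47) and Cdh1 (0.32) leave out 0. In tangerine minus red those of Gls2 (0.26) and Sds (0.36) do, and in tangerine minus control none does.

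The intervals in this plot are those of single genes before adjustment over all genes. Over the 9 genes the log2 differences of red from control ran from -0.47 (Sds) to 0.32 (Cdh1) with a median of -0.04, beside a median of -0.0047 over all tested genes. Of the 9, 6 had a fitted value below control, as did 51.5% of all tested genes. For tangerine against control the range was -0.11 to 0.22 and the median -0.0022, and for tangerine against red it was -0.10 to 0.36 with a median of 0.05.

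Gls2 encodes the liver-type glutaminase, a mitochondrial enzyme that splits glutamine into glutamate and ammonia. Its identifier, ENSMUSG00000044005, is annotated as protein coding, and its span on GRCm38 is chromosome 10, 128194457 to 128210004, plus strand. On control Gls2 ran from 234 to 366 CPM with a median of 319, on red from 236 to 318 CPM with a median of 263, and on tangerine from 212 to 394 CPM with a median of 330. All 12 red livers lay below the control median, but the red and control ranges overlapped over most of their length. Mean levels on control, red and tangerine were 313 ± 41.6, 271 ± 26.9 and 324 ± 53.6 CPM (SD, n = 12 each). Red differed from control by -0.21 on the log2 scale (SE 0.081, interval -0.37 to -0.044, edgeR p 0.0144, adjusted p 0.252). Tangerine lay above red by 0.26 (SE 0.081, interval 0.09 to 0.42, edgeR p 0.00307, adjusted p 0.0944), with 10 of 12 tangerine livers above the red median and 7 above every red liver. This was the smallest edgeR adjusted p of the 9 genes in any comparison. It was 0.0232 without the tangerine library from mouse 226, with a log2 difference of 0.30, and 0.239 without the libraries from mice 186 and 216. Tangerine and control differed by 0.05 (SE 0.081, edgeR adjusted p 1). Gls2 overlaps Spryd4 on the opposite strand, a gene with a median of 794 reads per library, and the strand setting of the counting is not given in the sources used here.

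Around Gls2, 13 genes of glutamine and glutamate metabolism were listed and 12 were tested. By edgeR none passed in red against control, and 5 had an unadjusted p under 0.05, as did 13.3% of all tested genes. DESeq2 passed 0 there and limma-voom with sample weights 4, where limma-voom passed 1482 of all 14068 genes. A fitted value below control was found for 10 of 12, beside 51.5% of all tested genes, and the list's median was -0.15. By edgeR 3 rose and 0 fell in tangerine against red, where 1.71% of all tested genes passed, with a list median of 0.14. These were Slc38a3 and Slc38a4, amino acid transporters of the cell membrane, and Gpt, an alanine aminotransferase. Slc38a3 ran from 1282 to 1823 CPM on red and from 1524 to 2769 CPM on tangerine, a log2 rise of 0.45 (SE 0.095, edgeR adjusted p 0.0146). Gpt rose by 0.34 (SE 0.083, adjusted p 0.0251) and Slc38a4 by 0.37 (SE 0.099, adjusted p 0.0416). Without the libraries from mice 186 and 216 only Slc38a3 of the 3 passed (adjusted p 0.0477). By leaving out 1 of the 24 tangerine and red libraries at a time, Slc38a3 passed in 24 of 24 fits and Slc38a4 in 10 of 24 (adjusted p 0.0220 to 0.0988). Gpt passed in 20, failing without red 202 or tangerine 216, 217 or 242. Transcripts of the circadian clock differed between these diets too, with 2 of 10 tested clock genes higher and 4 lower in tangerine than in red. A score over 10 clock genes, high where Dbp is high, averaged 0.814 on control, -2.38 on red and 1.57 on tangerine. With that score as a covariate 0 of the 3 passed, and Slc38a3 differed by 0.15 (edgeR adjusted p 0.515). With the mouse number as a covariate 0 of the 3 passed (adjusted p 0.0528 to 0.0978), and without a filter on low counts Slc38a4 did not (adjusted p 0.0526). With the score, 0 of 14068 genes passed in tangerine against red and 1608 had an unadjusted p under 0.05. For Gls2 the difference of tangerine from red was 0.25 with the score as a covariate (adjusted p 0.344), close to the 0.26 without it.

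Hal encodes histidine ammonia-lyase, which carries out the opening step of histidine breakdown. It lies on chromosome 10 from 93488768 to 93519304, plus strand (ENSMUSG00000020017, protein coding). Hal ran from 250 to 387 CPM on control (median 324), from 245 to 397 CPM on red (median 334) and from 259 to 411 CPM on tangerine (median 307). The diets overlapped over nearly all of their ranges. The log2 difference was 0.06 for red against control (SE 0.080, edgeR adjusted p 0.812) and -0.0022 for tangerine against control (SE 0.080, adjusted p 1), with an interval of -0.17 to 0.16. Of 6 other genes of histidine breakdown and use, all tested, 0 passed by edgeR in any comparison of single diets (1, 0 and 2 at an unadjusted p under 0.05 in red against control, tangerine against control and tangerine against red). DESeq2 passed 0, and limma-voom with sample weights 1, 0 and 1. The smallest p-values were those of Hnmt, a histamine methyltransferase, in red against control (-0.32, SE 0.109, edgeR adjusted p 0.170) and in tangerine against red (0.29, SE 0.109, adjusted p 0.184). Amdhd1, an enzyme further down the same pathway, averaged 216 CPM on control and 201 CPM on tangerine (-0.10, SE 0.067, edgeR adjusted p 0.966).

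RefSeq promoter windows of the 250 bases before the RefSeq start were at hand for 5 of the 9 genes (Hal, Hsd17b13, Pigr, Cyp2f2 and Ctsc), on GRCm38.p6. For Hsd17b13 and Cyp2f2 that start lies inside the gene span given in the text, which is from GENCODE, so their windows reach into that span. Both strands were searched for 5 motifs, none of which contains another. They were the TATA box written as TATAAA, the CCAAT motif, the E-box written as CACGTG, the D-box written as TTATGTAA and the cAMP response element written as TGACGTCA. The window of Hal, chr10:93488518-93488767 on the plus strand, is shown because it was the only one of the 5 with more than 1 match. Capitals mark CCAAT, beginning 64 bases before the start, and TATAAA on the other strand, which covers bases from 28 before the start and is therefore printed as its reverse complement.
Hal: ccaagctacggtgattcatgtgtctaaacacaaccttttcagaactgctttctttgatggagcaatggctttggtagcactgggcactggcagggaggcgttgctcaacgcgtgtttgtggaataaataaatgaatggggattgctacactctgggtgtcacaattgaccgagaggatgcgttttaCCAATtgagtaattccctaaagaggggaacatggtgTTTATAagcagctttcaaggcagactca
Of all 32851 windows of that length, 33.8% held CCAAT on either strand and 12.4% held the TATA box. The D-box (0.819% of windows) and the cAMP response element (1.55%) were in none of the 5. A match describes letters only.

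Sds encodes serine dehydratase, which turns serine into pyruvate and feeds glucose production, and Sdsl encodes a related dehydratase. The 2 genes are neighbours on chromosome 5 and point away from each other, with 3715 bases between them: Sdsl from 120458186 to 120472810 on the minus strand (ENSMUSG00000029596) and Sds from 120476526 to 120483932 on the plus strand (ENSMUSG00000029597). No stretch of 50 bases was shared between their annotated transcripts. Sds ran from 71.0 to 205 CPM on control (median 156), from 67.7 to 179 CPM on red (median 103) and from 81.3 to 224 CPM on tangerine (median 128). Of 12 red livers 1 lay above the control median, and 11 of 12 tangerine livers lay above the red median, while all 3 ranges overlapped. Mean levels in the same order were 153 ± 40.5, 110 ± 30.2 and 141 ± 39.1 CPM (SD, n = 12 each).

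For Sds the log2 difference of red from control was -0.47 (SE 0.157, interval -0.79 to -0.15, edgeR p 0.00496, adjusted p 0.165). It was the largest difference of the 9 genes in either direction and did not pass the threshold. By limma-voom with sample weights it was -0.51 with an adjusted p of 0.0267, and by DESeq2 the adjusted p was 0.0964. With the clock score as a covariate it was -0.40 (edgeR adjusted p 0.471), and with surrogate variables it was -0.28 (adjusted p 0.342). Tangerine lay 0.36 above red (SE 0.157, interval 0.04 to 0.67, edgeR p 0.0287, adjusted p 0.266) and 0.11 below control (log2 difference -0.11, SE 0.157, adjusted p 1). Plbd2 overlaps Sds on the opposite strand with a median of 1687 reads per library, beside 1735 to 5962 reads for Sds itself.

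Sdsl had the fewest reads of the 9 genes, with means of 10.4 ± 1.62, 9.64 ± 0.998 and 10.4 ± 1.42 CPM on control, red and tangerine (SD, n = 12 each). Red livers differed from control by -0.11 in log2 (SE 0.080, edgeR adjusted p 0.560). On red 1 of 12 lay above the control median. Tangerine differed from control by -0.0096 (SE 0.080, adjusted p 1), with an interval of -0.17 to 0.15.

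Of 10 listed genes of serine, threonine and glycine breakdown 8 were tested, and 0 passed by edgeR in any comparison of single diets (4, 0 and 3 at an unadjusted p under 0.05, in the same order). DESeq2 passed 0, 0 and 1, and limma-voom with sample weights 3, 0 and 2. In red against control limma-voom passed 1482 of all 14068 genes, and 13.3% of all genes had an unadjusted edgeR p under 0.05. The smallest p-values in red against control were those of Amt, a subunit of the glycine cleavage system, at 0.22 (SE 0.073, edgeR adjusted p 0.163), and Srr, serine racemase, at 0.19 (SE 0.064, adjusted p 0.180). Gldc, another subunit of the glycine cleavage system, averaged 240 CPM on red and 178 CPM on tangerine, a log2 difference of -0.43 (SE 0.124, edgeR adjusted p 0.0606). The fitted values of Amt and Gldc were higher on red than on the other diets, and that of Sds was lower; none of these differences passed by edgeR.

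**Figure D2:**
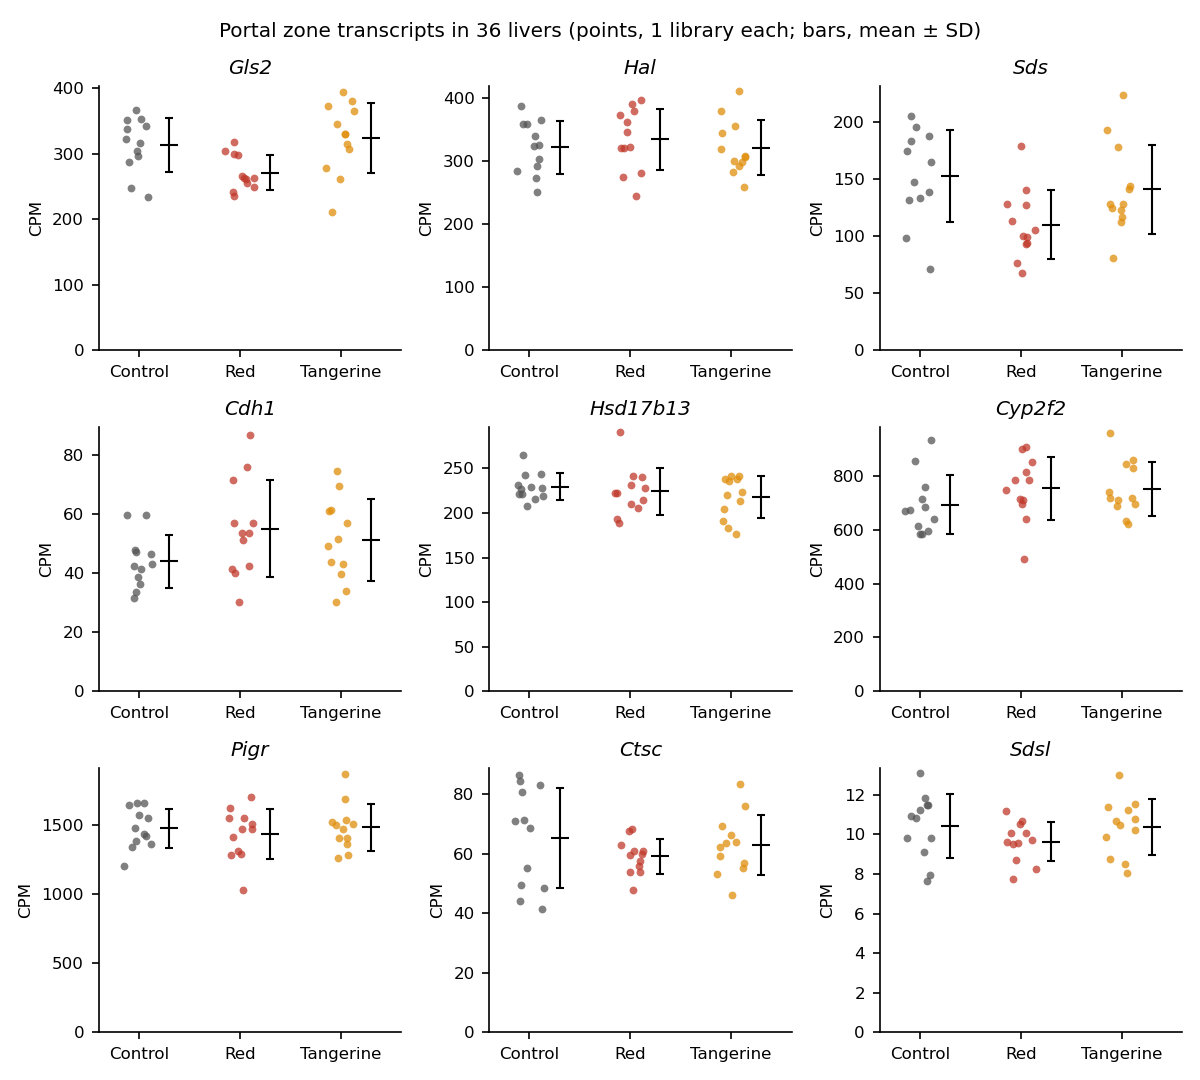
CPM of each of the 9 genes in 36 livers by diet (points, 1 library each, spread sideways for clarity), with the mean and SD of each diet beside the points. All vertical axes start at 0. For Gls2 every red point lies below the control median of 319 CPM, and for Sds 11 of 12 do so against 156 CPM. For all 9 genes the ranges of the diets overlap.

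Cdh1 encodes E-cadherin, the protein that joins neighbouring epithelial cells at adherens junctions. Hepatocytes of the portal zone make it, and so do bile duct cells. It lies on chromosome 8 from 106603351 to 106670246, plus strand (ENSMUSG00000000303). Cdh1 ran from 31.7 to 59.8 CPM on control (median 42.8), from 30.2 to 86.8 CPM on red (median 53.8) and from 30.2 to 74.7 CPM on tangerine (median 50.6). On red 8 of 12 livers lay above the control median and 3 above every control liver, and the lowest livers of the 3 diets were alike. Means were 44.1 ± 8.95, 55.2 ± 16.3 and 51.4 ± 13.9 CPM (SD, n = 12 each).

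The log2 difference of Cdh1 in red against control was 0.32 (SE 0.147, interval 0.02 to 0.62, edgeR p 0.0347, adjusted p 0.338). It was 0.41 with an adjusted p of 0.0420 by limma-voom with sample weights and 0.15 (edgeR adjusted p 0.787) with the clock score as a covariate. Tangerine lay 0.22 above control (SE 0.147, edgeR adjusted p 0.974), and both tomato diets together 0.27 above control (SE 0.129, p 0.0417, adjusted p 0.707), with 17 of 24 livers above the control median. Tangerine differed from red by -0.10 (SE 0.147, adjusted p 0.790), and by 0.10 with the clock score as a covariate. Of 10 bile duct cell markers 6 were tested, and Tspan8 is listed at 0. Their summed level was 48.3 to 63.4 CPM on control, 51.8 to 91.4 CPM on red and 51.0 to 146 CPM on tangerine. Across the 36 livers, with diet means removed, this sum and Cdh1 had a Pearson r of 0.37 (permutation p 0.0352, adjusted over 54 relations 0.273) and a Spearman rho of 0.29 (permutation p 0.0933, adjusted 0.388). Without the 2 livers farthest from the median of the sum, r was 0.24.

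Among 14 genes of adherens and tight junctions, all tested, 0 passed by edgeR in red against control or tangerine against control (3 in each at an unadjusted p under 0.05). DESeq2 passed 0 in both, and limma-voom with sample weights 4 and 0. The smallest p-values in tangerine against control were those of Gjb2, a gap junction protein (0.20, SE 0.056, edgeR adjusted p 0.553), and Ocln, occludin (0.33, SE 0.128, adjusted p 0.768).

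Hsd17b13 encodes a protein of the hydroxysteroid dehydrogenase family that sits on lipid droplets of hepatocytes. It lies on chromosome 5 from 103955440 to 103977410, minus strand (ENSMUSG00000034528). Hsd17b13 ran from 208 to 265 CPM on control (median 228), from 189 to 291 CPM on red (median 222) and from 176 to 242 CPM on tangerine (median 222). It was the steadiest of the 9 genes, with the medians of the 3 diets within a few percent of each other. Its log2 difference was -0.03 for red against control (SE 0.060, interval -0.16 to 0.09, edgeR adjusted p 0.853) and -0.08 for tangerine against control (SE 0.060, interval -0.20 to 0.04, adjusted p 1). Of 12 listed lipid droplet genes 10 were tested and 0 passed by edgeR (1, 2 and 3 at an unadjusted p under 0.05 in red against control, tangerine against control and tangerine against red). DESeq2 and limma-voom with sample weights each passed 1 in tangerine against red and 0 in the others. Plin2, the main coat protein of lipid droplets in liver, had means of 356, 460 and 340 CPM on control, red and tangerine. Its difference was 0.37 for red against control (SE 0.123, edgeR adjusted p 0.163) and -0.43 for tangerine against red (SE 0.123, adjusted p 0.0576).

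Cyp2f2 encodes a cytochrome P450 known for the oxidation of naphthalene. It lies on chromosome 7 from 27119909 to 27133660, plus strand (ENSMUSG00000052974). Cyp2f2 ran from 584 to 931 CPM on control (median 670), from 493 to 904 CPM on red (median 765) and from 621 to 957 CPM on tangerine (median 718). On each tomato diet 10 of 12 livers lay above the control median, while only 1 of the 24 exceeded the highest control liver. The log2 difference was 0.12 for red against control (SE 0.086, edgeR adjusted p 0.565), 0.12 for tangerine against control (SE 0.086, adjusted p 0.995) and 0.12 for both against control (SE 0.075, interval -0.03 to 0.27, adjusted p 0.798). By limma-voom with sample weights the difference of red from control was 0.22 (adjusted p 0.0415). Tangerine and red differed by -0.0042 (SE 0.086, interval -0.18 to 0.17).

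Pigr encodes the polymeric immunoglobulin receptor, which carries immunoglobulin A through the cell and into bile. It lies on chromosome 1 from 130826684 to 130852249, plus strand (ENSMUSG00000026417). Pigr was read most deeply of the 9, with 29528 to 52447 reads per library. It ran from 1207 to 1660 CPM on control (median 1456), from 1029 to 1703 CPM on red (median 1470) and from 1259 to 1870 CPM on tangerine (median 1489). The 3 medians were close together. The log2 difference was -0.04 for red against control (SE 0.069, interval -0.18 to 0.10, edgeR adjusted p 0.839) and 0.0082 for tangerine against control (SE 0.069, interval -0.13 to 0.15, adjusted p 1). Of 5 listed genes of the immunoglobulins it carries 3 were tested and 0 passed by edgeR, DESeq2 or limma-voom (1, 0 and 0 at an unadjusted edgeR p under 0.05). Jchain, the chain that joins immunoglobulin A units, averaged 0.348 CPM on control and 0.540 CPM on red (0.66, SE 0.319, edgeR adjusted p 0.365). The red library from mouse 186, which was high in lymphocyte markers, held 2.45 CPM, while the other 11 red livers ran from 0.173 to 0.618 CPM. Without it the red mean was 0.366 CPM and the log2 difference 0.08 (adjusted p 0.912).

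The promoter windows of Hsd17b13 and Pigr are shown because these genes had a positive correlation across livers, which passed with TMM factors but not with DESeq2 size factors (adjusted permutation p 0.0448 and 0.0560). They lie at chr5:103977389-103977638 on the minus strand and chr1:130826434-130826683 on the plus strand, and the capitals mark CACGTG, beginning 71 bases before the start of Pigr.
Hsd17b13: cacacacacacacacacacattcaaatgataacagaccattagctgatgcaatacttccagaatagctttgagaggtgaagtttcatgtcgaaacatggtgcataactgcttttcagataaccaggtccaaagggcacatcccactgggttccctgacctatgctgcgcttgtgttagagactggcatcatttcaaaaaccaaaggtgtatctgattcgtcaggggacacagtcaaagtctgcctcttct
Pigr: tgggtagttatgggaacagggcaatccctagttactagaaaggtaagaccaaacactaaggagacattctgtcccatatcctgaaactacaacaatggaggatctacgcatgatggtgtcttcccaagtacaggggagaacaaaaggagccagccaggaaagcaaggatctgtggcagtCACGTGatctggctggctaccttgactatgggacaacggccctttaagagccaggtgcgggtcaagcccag
The window of Hsd17b13 held none of the 5 motifs, and 6.02% of all windows held CACGTG.

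Ctsc encodes cathepsin C, a lysosomal protease that activates other proteases, and immune cells make it too. It lies on chromosome 7 from 88278085 to 88310888, plus strand (ENSMUSG00000030560). Ctsc ran from 41.3 to 86.4 CPM on control (median 69.7), from 47.7 to 68.3 CPM on red (median 59.7) and from 46.1 to 83.5 CPM on tangerine (median 62.8). All 12 red livers lay below the control median, yet none lay below the lowest control liver, and the control livers were the most spread, with an SD of 16.8 CPM against 5.83 CPM on red. The log2 difference was -0.15 for red against control (SE 0.106, interval -0.36 to 0.07, edgeR adjusted p 0.579) and -0.05 for tangerine against control (SE 0.106, adjusted p 1). The summed level of 10 Kupffer cell markers, all tested, was 139 to 397 CPM on control, 239 to 485 CPM on red and 181 to 380 CPM on tangerine. Its relation to Ctsc across 36 livers had a Pearson r of 0.29 (permutation p 0.134, adjusted over 54 relations 0.398) and a Spearman rho of 0.23 (permutation p 0.211, adjusted 0.562). Without the 2 livers farthest from the median of the sum, r was 0.28. Of 11 cathepsins and cathepsin inhibitors, all tested, 0 passed by edgeR (1, 0 and 2 at an unadjusted p under 0.05) or DESeq2, and 1 passed by limma-voom with sample weights in red against control. The list medians were -0.0084 in red against control and 0.03 in tangerine against control. Ctsl, a cysteine protease of the lysosome, had the smallest p in red against control (-0.17, SE 0.069, edgeR adjusted p 0.285).

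Some other portal zone genes passed where the 9 did not. Of 22 listed, 20 were tested. In red against control Arg1, the last enzyme of the urea cycle, fell by 0.38 on the log2 scale (SE 0.075, edgeR adjusted p 0.0167), from 1384 ± 130 CPM to 1062 ± 144 CPM (SD, n = 12 each). It was the only gene of the list to pass there by edgeR, and it passed with each library left out in turn (adjusted p 0.00363 to 0.0468). DESeq2 passed 3 of the list, all lower. Limma-voom with sample weights passed 5, all lower, where it passed 1482 of all 14068 genes. In tangerine against red 3 rose and 0 fell by edgeR: Arg1 by 0.31 (SE 0.075, adjusted p 0.0251), Asl by 0.37 (SE 0.098, adjusted p 0.0415) and Cps1 by 0.40 (SE 0.108, adjusted p 0.0446), all of the urea cycle. DESeq2 and limma-voom with sample weights each passed 5 of the list there, 4 higher and 1 lower. Cps1 ran from 2558 to 4158 CPM on red and from 3008 to 5676 CPM on tangerine. The list's median was -0.13 in red against control and 0.13 in tangerine against red, beside -0.04 and 0.05 for the 9 genes; the difference between the lists was not tested. In tangerine against red Arg1 passed in 22 of 24 fits that left out 1 library (not without tangerine 216 or 217), Asl in 9 and Cps1 in 8. Without the libraries from mice 186 and 216 Arg1 again fell in red against control (adjusted p 0.0170), whereas 0 of the 3 passed in tangerine against red (adjusted p 0.0967 to 0.140). With the clock score as a covariate Arg1 differed by -0.24 in red against control (adjusted p 0.330) and 0 of the 20 passed in either comparison. With the mouse number as a covariate Arg1, Asl and Cps1 did not pass in tangerine against red (edgeR adjusted p 0.0599, 0.0825 and 0.0966), nor did Asl and Cps1 without a filter on low counts (adjusted p 0.0526 and 0.0578).

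Of 20 listed central zone genes 18 were tested, and 0 passed in red against control by edgeR, DESeq2 or limma-voom (2 at an unadjusted edgeR p under 0.05). Cyp1a2, a P450 of the central zone, rose in tangerine against control by 0.54 (SE 0.095, edgeR adjusted p 0.0115), with all 12 tangerine livers above the control median. It also rose in tangerine against red (0.44, SE 0.095, adjusted p 0.0155), together with Lect2 (0.36, SE 0.067, adjusted p 0.00564) and Gulo (0.25, SE 0.060, adjusted p 0.0237). All 4 of these calls held with each library left out in turn. With the clock score as a covariate Cyp1a2 passed in tangerine against control (0.52, adjusted p 0.0119) and 0 of the 18 passed in tangerine against red. With the mouse number as a covariate Cyp1a2 did not pass in tangerine against control (0.48, edgeR adjusted p 0.0838) or in tangerine against red (0.38, adjusted p 0.0539), and Gulo did not pass (adjusted p 0.0599).

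**Figure D3:**
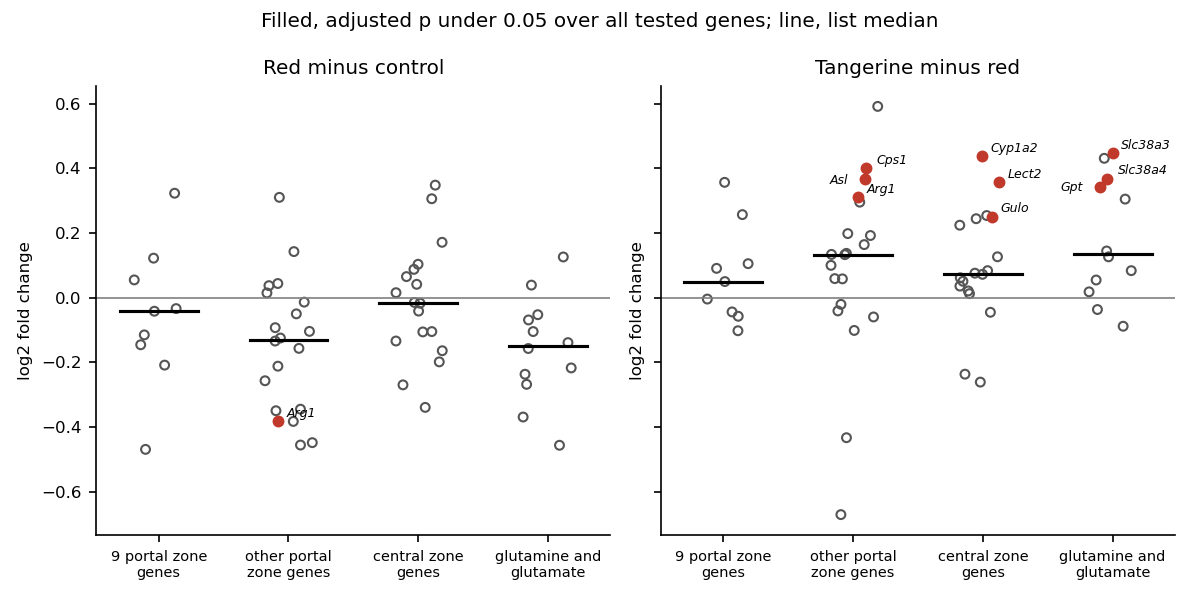
Log2 fold changes of the tested genes of 4 lists in red minus control and tangerine minus red (points, 1 gene each), with the list median as a line. Filled points passed an edgeR adjusted p of 0.05 over all tested genes. None of the 9 portal zone genes is filled in either panel. Arg1 is filled at -0.38 on the left, and 9 genes of the other lists are filled above 0 on the right.

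In the plot of the lists the other portal zone genes ran from -0.46 to 0.31 in red against control, where Sds at -0.47 lay just below and Cdh1 at 0.32 just above that range and the other 7 of the 9 genes lay inside it. In tangerine against red they ran from -0.67 to 0.59, and all 9 genes lay inside.

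Levels of the 9 genes were set side by side per kilobase of exon, averaged over the 36 livers. Pigr (364 ± 40.3 CPM per kb, SD, n = 36) and Cyp2f2 (361 ± 54.0) led and were not set apart, with Pigr above Cyp2f2 in 22 of 36 livers. Hsd17b13 followed at 104 ± 10.3, then Gls2 at 87.2 ± 13.5 and Sds at 79.5 ± 23.7, with overlapping ranges. Hal was at 58.7 ± 7.93 CPM per kb and lay above Cdh1 in all 36 livers without overlap, as Cyp2f2 did above Hsd17b13. Cdh1 (11.0 ± 3.02) and Ctsc (10.7 ± 2.02) were alike, with Cdh1 the higher in 17 of 36 livers, and Sdsl was lowest at 6.78 ± 0.923.

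The genes differed in how much they varied among mice on the same diet. The SD of log2 CPM within diets was 0.41 for Sds and 0.38 for Cdh1, at percentiles 80.5 and 76.5 of all tested genes, whose median was 0.24. It was 0.14 for Hsd17b13 (percentile 15.5) and 0.17 for Pigr (percentile 24.1), and Ctsc, Cyp2f2, Gls2, Hal and Sdsl lay between 0.20 and 0.27. The highest of the 36 livers exceeded the lowest by 3.31 times for Sds, 2.88 times for Cdh1 and 1.65 times for Hsd17b13.

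Whether the genes varied together beyond diet was asked over all 36 pairs, from log2 CPM with each diet's mean removed. The median Pearson r was 0.19, and 26 of 36 pairs were positive. Permutation within diets, adjusted over the 36 pairs, passed 4 pairs by both Pearson and Spearman coefficients. The neighbours Sds and Sdsl had r = 0.66 (permutation p 3e-05, adjusted 0.00054) and rho = 0.50 (permutation p 0.00253, adjusted 0.0248), with r of 0.71, 0.65 and 0.62 within control, red and tangerine. Gls2 and Hal, both of amino acid breakdown, had r = 0.57 (permutation p 0.00028, adjusted 0.00336) and rho = 0.64 (permutation p 7e-05, adjusted 0.00252), with r of 0.45, 0.70 and 0.64 within the diets. Hsd17b13 and Pigr had r = 0.49 (permutation p 0.00498, adjusted 0.0448) and rho = 0.50 (permutation p 0.00276, adjusted 0.0248), with r of 0.52, 0.26 and 0.79 within the diets. With DESeq2 size factors this pair had r = 0.48 and did not pass (adjusted permutation p 0.0560).

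The other pair to pass ran the opposite way. Livers with more Cdh1 had less Hsd17b13, with r = -0.68 (permutation p 3e-05, adjusted 0.00054) and rho = -0.61 (permutation p 0.00017, adjusted 0.00306). Within control, red and tangerine r was -0.38, -0.67 and -0.82. Without the 2 livers farthest from the median of the gene named first, r was 0.59 for Sds and Sdsl, 0.60 for Gls2 and Hal, 0.45 for Hsd17b13 and Pigr and -0.58 for Cdh1 and Hsd17b13. The bile duct marker sum had r = -0.36 with Hsd17b13 (permutation p 0.0502, adjusted 0.322) beside 0.37 with Cdh1. Spearman rho was -0.44 with Hsd17b13 (permutation p 0.00898, adjusted 0.0984) beside 0.29 with Cdh1. The part of bile duct cells in the opposite course of the 2 genes was not tested.

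**Figure D4:**
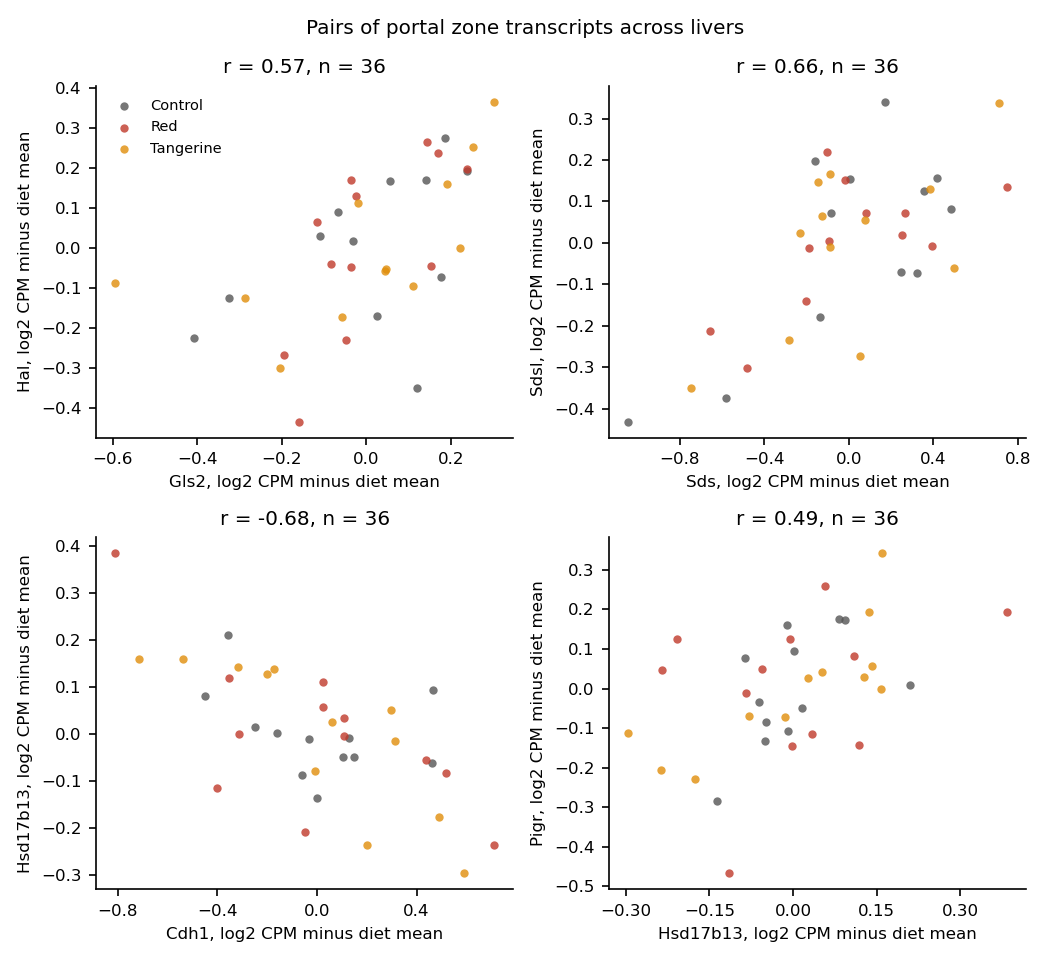
Log2 CPM minus the diet mean for the 4 pairs of genes that passed, 1 point per liver (n = 36) and coloured by diet. Sds and Sdsl, Gls2 and Hal, and Hsd17b13 and Pigr rise together (r = 0.66, 0.57 and 0.49), while Cdh1 and Hsd17b13 run in opposite directions (r = -0.68).

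In the plot of these pairs the points of the 3 diets are mixed, since the diet means were removed. For each of the 9, the genes with the most similar course over the 36 livers were taken from the other tested genes, by Pearson r on the same values. Their libraries and depth are shared, so these are descriptions. Sds ran closest to Cebpb (r = 0.79), Tat (0.77) and Pim3 (0.76). Hal ran closest to Ccdc151 (0.76), St6galnac6 (0.73) and Amdhd1 (0.73), an enzyme of the same pathway, and Gls2 to Ttc38 (0.72), Ggt6 (0.70) and Anxa6 (0.69). For Cdh1 they were Itih5 (0.78), Dnaic1 (0.77) and Adgrf1 (0.76), and for Hsd17b13 Reep6 (0.77), Cd59a (0.76) and Pgm1 (0.76). Cyp2f2 was nearest to Cyp2a12 (0.82), Mup13 (0.80) and Apeh (0.80), Pigr to Gm4756 (0.86), Hrg (0.78) and Cat (0.75), and Ctsc to F9 (0.85), Ugt3a1 (0.83) and Ugt3a2 (0.81). Sdsl had the least similar neighbours, Gm48199 (0.57), Adamts15 (0.56) and Got1 (0.55).

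Each of the 9 genes was also set against 6 measures of the libraries (clock score, share of mitochondrial reads, total count and the summed markers of bile duct cells, Kupffer cells and lymphocytes), 54 relations in all. None passed after adjustment. The closest by Pearson were Hal with the clock score (r = -0.49, permutation p 0.00342, adjusted 0.0923, and rho = -0.49, permutation p 0.00371, adjusted 0.0984) and Ctsc with the mitochondrial share (r = 0.46, permutation p 0.00221, adjusted 0.0923, and rho = 0.41, permutation p 0.00911, adjusted 0.0984). Without the 2 farthest livers r was -0.51 and 0.39. Within control, red and tangerine r of Hal with the clock score was -0.44, -0.61 and -0.42. By Spearman other relations were as close. Cyp2f2 with the mitochondrial share had rho = -0.45 (permutation p 0.00752, adjusted 0.0984). Hsd17b13 with the bile duct marker sum had rho = -0.44 (permutation p 0.00898, adjusted 0.0984).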

How the data were processed

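The authors deposited a table of raw read counts per gene, with no normalization, for 36 liver libraries. Per the labels' protocols, RNA was extracted with Qiagen kits and libraries were made with the NEXTflex Rapid Directional kit. Build GRCm38.p6, FastQC, Trimmomatic and edgeR are named per the submitters' processing notes. The aligner, the counting program, the annotation and the strand setting are not given in the sources used here. Columns were matched to samples by the names in the labels. Identifiers were matched to GENCODE M21 (GRCm38), which gave a symbol for 53620 of them, and the rest held 0.00177% of counts. Promoter windows came from RefSeq on GRCm38.p6.

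Counts were filtered with filterByExpr of edgeR 4.0.16 (R 4.3.3; minimum count 10, minimum total count 15), scaled with TMM factors (trimmed mean of M values) and tested with the robust quasi-likelihood F test over all 3 diets, which share the dispersion, with no covariate. Benjamini-Hochberg adjustment ran over all tested genes within a comparison. Intervals are 95% and unadjusted, and the p-values of the diet comparisons set a difference against the spread between libraries, taken as separate mice. Log2 CPM used a prior count of 2, and relations between genes used 100000 two-sided permutations within diets (numpy 2.4.6, scipy 1.17.1). The scripts were tested on simulated counts. The clock score is the principal component holding 84.2% of the variance of 10 clock genes. Of 198 listed genes 12 had no count in any library, and such a gene is written as listed at 0.

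The 9 genes and the companion lists were chosen with earlier results of these data known. Named companions are those that passed and otherwise up to 2 of the genes with the smallest p-values in a list and comparison, and the 3 most similar genes for each of the 9. Alternatives were DESeq2 1.42.0 size factors and test, limma 3.58.1 voom with sample weights, other filters, only the groups compared, surrogate variables (sva 3.50.0, 5 used of 9 estimated), the clock score or mouse number as a covariate, and leaving libraries out. Applying them to the companion genes was chosen after seeing the data. Some results for companion genes are not reported here.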

Additional observations from a re-analysis of the deposited data

How the results depend on the processing

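The 36 differences of the 9 genes were recomputed under other settings. Of 351 values with another setting 322 kept their sign and their side of the threshold, 3 passed it and 26 changed sign, the largest of these being 0.12 in absolute size. Of 972 values with 1 library left out, 931 kept both, 1 passed and 40 changed sign. The number of the 9 genes passing in red against control was 3 by limma-voom (Sds, Cdh1 and Cyp2f2). In tangerine against red it was 0 to 1 with a library left out, and the 1 was Gls2 without the tangerine library from mouse 226.

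Signs changed as follows, as log2 differences. With the clock score as a covariate: Hal -0.087 and Hsd17b13 0.0036 in red against control, Hal 0.030, Pigr -0.00063 and Sdsl 0.0073 in tangerine against control, Hal 0.12 and Cdh1 0.10 in tangerine against red, and Hal -0.029 for both diets. With surrogate variables: Pigr 0.033 and Ctsc 0.0061 in red against control, Ctsc -0.0074 in tangerine against red, and Pigr 0.041 and Ctsc 0.0024 for both diets. In tangerine against control Hal was 0.0026 with DESeq2 size factors and with the DESeq2 test, 0.0068 without a filter, 0.0052 at a mean log2 CPM of at least 1, 0.0099 by limma-voom and 0.030 with the mouse number. Pigr was -0.012 by limma-voom and -0.024 with the mouse number, and Sdsl 3.09e-05 without a filter, 0.0085 by limma-voom and 0.046 with the mouse number. In tangerine against red Cyp2f2 was 0.00094 without a filter and 0.0042 with the mouse number. With 1 library left out the ranges were -0.039 to 0.024 for Hal, -0.026 to 0.028 for Pigr and -0.044 to 0.024 for Sdsl in tangerine against control, -0.049 to 0.024 for Cyp2f2 in tangerine against red, and -0.0023 to 0.053 for Hal and -0.040 to 0.0015 for Pigr for both diets. The cause was not tested.

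The number of all genes passing, which is the background for the 9, moved more. From 21 in red against control it was 59 at a mean log2 CPM of at least 1, 167 by DESeq2, 1482 by limma-voom, 3 with the clock score, 366 with surrogate variables, 53 without the libraries from mice 186 and 216, and 13 to 127 with 1 library left out (lowest without red 166, highest without control 189, and moved by over 1.5 times also without control 120 or 245 or red 170, 177, 186 or 204). From 2 in tangerine against control it was 7 by DESeq2, 63 with surrogate variables, 1 with the mouse number, and 2 to 4 with 1 left out (4 without tangerine 192). From 241 in tangerine against red it was 136 without a filter, 421 by DESeq2, 732 by limma-voom, 0 with the clock score (where 1608 had an unadjusted p under 0.05), and 819 with surrogate variables, 32 with the mouse number, 86 without the pair, and 89 to 300 with 1 left out (lowest without tangerine 216, and moved as much without red 133, 156, 175, 199 or 202 or tangerine 215, 217 or 242). From 1 for both diets it was 6 without a filter, 12 by DESeq2, 34 by limma-voom, 48 with surrogate variables, 2 without the pair, and 1 to 7 with 1 left out (7 without control 189, and 2 or 3 without red 170, 177, 186 or 204). The pair Hsd17b13 and Pigr had r = 0.48 (adjusted permutation p 0.0560) with DESeq2 size factors.

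No paired analysis was possible because no mouse number occurs in more than 1 diet. With 12 livers a diet the standard errors of the 9 genes in comparisons of single diets ran from 0.060 for Hsd17b13 to 0.157 for Sds. Differences that are small beside these errors could not be resolved.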
